A study of Mus musculus with 9 samples.

Results

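The rod phototransduction cascade is the set of proteins by which a rod turns the absorption of light into an electrical signal, and 9 of its genes were followed here: Gnat1, Gnb1, Gngt1, Pde6a, Pde6b, Pde6g, Cnga1, Cngb1 and Sag. They were taken by gene symbol from the deposited table of 22337 genes, and each of the 9 symbols matched 1 row. RNA-seq was run on retinas collected at postnatal day 28 (P28), with 3 libraries in each of 3 groups. WT mice were C57 BL/6J and non-treated, which means that they were not injected. Rd10 mice, which are homozygous for a missense mutation in Pde6b and lose their photoreceptors, received 1 µl of normal saline (NS) or of extracellular vesicles of mesenchymal stem cells (MSC-EVs) into both eyes at P14 and again at P21. The vesicles came from mesenchymal stem cells of human umbilical cord, the MSC-EVs-treated and NS-treated mice were littermates, and the WT mice came from another supplier. Genotype, injection and supplier therefore cannot be told apart in a comparison of rd10 with WT. The sources used here give neither the sex of the animals nor how many animals went into a library, so that p-values measure the spread between these libraries, which may be partly technical.

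In the dark, cyclic GMP holds the channels of the rod outer segment open. Light activates the G protein transducin, whose alpha subunit carries GTP to the phosphodiesterase PDE6, and PDE6 breaks cyclic GMP down so that the channels close and the cell hyperpolarizes. Arrestin then binds the photoactivated, phosphorylated receptor and ends the signal. Rods outnumber every other cell type of the mouse retina, and loss of PDE6 function leaves cyclic GMP high in rods and is followed by their death.

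In GENCODE M21 on GRCm38, all 9 genes are protein coding. Gnat1 (ENSMUSG00000034837), the alpha subunit of rod transducin, lies at chr9:107674474-107679712 on the minus strand, Gnb1 (ENSMUSG00000029064), its beta subunit, at chr4:155491361-155559269 on the plus strand, and Gngt1 (ENSMUSG00000029663), its gamma subunit, at chr6:3993792-3997436 on the plus strand. The catalytic subunits of PDE6 are Pde6a (ENSMUSG00000024575), at chr18:61220315-61289924 on the plus strand, and Pde6b (ENSMUSG00000029491), at chr5:108388391-108432397 on the plus strand, and the inhibitory subunit is Pde6g (ENSMUSG00000025386), at chr11:120447605-120453500 on the minus strand. The channel subunits are Cnga1 (ENSMUSG00000067220), at chr5:72603696-72644275, and Cngb1 (ENSMUSG00000031789), at chr8:95239045-95306585, both on the minus strand. Rod arrestin is Sag (ENSMUSG00000056055), at chr1:87803680-87845158 on the plus strand. None of the 9 shared an exonic base with an overlapping gene, and between 0% and 3.3% of the 50-base stretches of their transcripts occurred in transcripts of other genes. The genome build behind the deposited values is not given in the sources used here.

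Depth was high in every library. The estimated counts summed to 21719264 to 24155041 in WT, 19491741 to 28545637 in NS-treated rd10 and 22604497 to 62532365 in MSC-EVs-treated rd10, where replicate 3 was the deepest. Counts of the 9 genes made up 3.24% to 3.48% of a WT library, 0.904% to 1.2% of an NS-treated library and 0.895% to 1.24% of an MSC-EVs-treated library. CPM values are counts scaled to the library total multiplied by its TMM factor, a normalization factor from edgeR. The factors were 0.92 to 0.932 in WT and 1.029 to 1.052 in rd10, so CPM differs from a share of the library total. The 4 Y-linked genes Ddx3y, Kdm5d, Uty and Eif2s3y summed to 183 and 189 CPM in MSC-EVs replicates 1 and 2. In the other 7 libraries they summed to 0.237 to 0.501 CPM. The MSC-EVs-treated group was therefore mixed in this respect and the other groups were not. For the 9 cascade genes, the fits between the rd10 groups are given below with and without these libraries. Fits of the other gene lists and tests of ratios between those groups are given with all MSC-EVs libraries only.

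In the WT retina, the cascade genes were among the most abundant transcripts. FPKM, which the authors normalized for transcript length and sequencing depth, allows levels to be compared between genes. By its mean over the 3 WT libraries, Gnat1 was the 6th highest of the 22337 genes, Gnb1 the 11th, Sag the 12th and Pde6g the 16th, followed by Pde6b at rank 30, Pde6a at 42, Gngt1 at 65, Cngb1 at 92 and Cnga1 at 152. Mean levels spanned a 24.2-fold range, and Gnat1 alone accounted for 38.9% of the summed FPKM of the 9 genes. The WT ranges of Gnb1 and Sag overlapped, and those of all other neighbours in that order did not. The WT libraries were tight, with a coefficient of variation of 1.78% to 7.09% per gene.

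The order changed in rd10. In the NS-treated libraries Gnat1 was still first by its mean FPKM, but its range overlapped that of Sag, which stood at rank 2 among the 9 in place of 3. Pde6a lay above Pde6b in the rd10 means, in reverse of the WT order, with overlapping ranges, and Gngt1 overlapped both of them in the NS-treated group. Gngt1 and Cngb1 also overlapped in both rd10 groups, and Cngb1 and Cnga1 overlapped in the MSC-EVs-treated group. Gnat1 made up 31.5% of the summed FPKM in NS-treated and 31% in MSC-EVs-treated rd10, and the share of Sag was 16.2% in WT and 25.6% and 25.5% in these groups. By rank among all genes, Gnat1 stood at 15 in NS-treated rd10, Sag at 19, Gnb1 at 30 and Pde6g at 49, and Cnga1, the lowest of the 9, at 608. Spread between libraries was wider than in WT, with coefficients of variation of 11.4% to 15.8% in NS-treated and 11.3% to 21.6% in MSC-EVs-treated rd10.

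**Figure D1:**
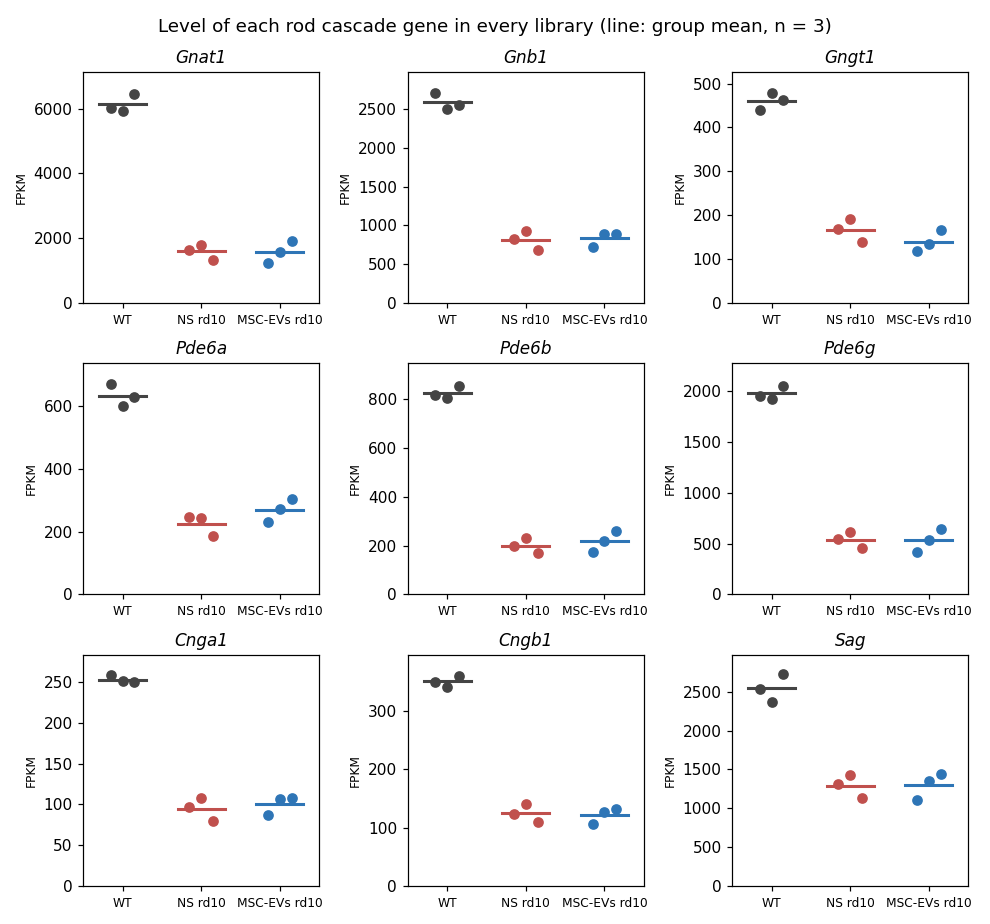
FPKM of each of the 9 rod cascade genes (y axis, from 0, a scale for each panel) in WT and in rd10 with NS or with MSC-EVs; each point is 1 library and each line the mean of 3. For every gene the WT points lie above all 6 rd10 points, and the points of the 2 rd10 groups overlap.

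The promoters of rod genes are known targets of the homeodomain factor CRX and the leucine zipper factor NRL, so the stretch from 250 bases before to 50 bases after the annotated start was searched on both strands for TAATCC, a core of CRX-like sites, and TGCTGA, a part of NRL-like sites. RefSeq windows on GRCm38.p6 were at hand for 6 members, Sag, Gnb1, Cnga1, Pde6b, Gngt1 and Cngb1, and not for the other 3. TAATCC was present in 4 of the 6, against 7.1% of 32851 windows of the table, and TGCTGA in 2 of the 6, against 19.5%. Both were found in Sag alone of the 6, and in 1.4% of all windows. No match overlapped another. These matches are letters in a window, and no binding was measured. Windows of 4 genes are printed below, 5′ to 3′ on the strand of the gene, as examples of a window with both motifs, with an NRL-like match only, with a repeated CRX-like match, and with none; capitals mark the matches.
Sag: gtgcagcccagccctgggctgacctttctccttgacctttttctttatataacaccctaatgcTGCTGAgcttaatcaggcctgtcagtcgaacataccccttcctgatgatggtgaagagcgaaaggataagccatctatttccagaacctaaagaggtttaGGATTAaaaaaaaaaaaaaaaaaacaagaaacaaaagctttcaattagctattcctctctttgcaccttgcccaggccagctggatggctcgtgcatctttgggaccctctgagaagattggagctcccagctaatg
Pde6b: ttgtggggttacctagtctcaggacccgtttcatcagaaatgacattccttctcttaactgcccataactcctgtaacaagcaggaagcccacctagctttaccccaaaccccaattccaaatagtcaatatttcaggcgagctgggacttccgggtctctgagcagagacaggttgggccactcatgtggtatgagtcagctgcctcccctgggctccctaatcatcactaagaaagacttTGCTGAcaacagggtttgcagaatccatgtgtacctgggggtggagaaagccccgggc
Cngb1: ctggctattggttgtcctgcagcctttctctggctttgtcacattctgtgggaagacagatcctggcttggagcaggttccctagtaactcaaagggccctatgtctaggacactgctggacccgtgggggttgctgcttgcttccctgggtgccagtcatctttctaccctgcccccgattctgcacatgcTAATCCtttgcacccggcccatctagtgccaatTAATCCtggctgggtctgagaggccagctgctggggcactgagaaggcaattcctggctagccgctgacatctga
Gnb1: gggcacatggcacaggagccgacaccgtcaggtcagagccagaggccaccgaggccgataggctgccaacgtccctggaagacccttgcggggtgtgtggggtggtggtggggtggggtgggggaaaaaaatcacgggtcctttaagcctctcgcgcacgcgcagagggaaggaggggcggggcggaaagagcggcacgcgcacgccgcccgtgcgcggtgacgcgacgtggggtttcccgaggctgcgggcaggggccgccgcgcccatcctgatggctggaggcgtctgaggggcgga
The Sag window (chr1:87803430-87803729, plus strand) held TGCTGA with its first base at -187 from the start and, read on the gene's strand, GGATTA, the reverse complement of TAATCC, at -87. In the Pde6b window (chr5:108388123-108388422, plus strand), TGCTGA began at -8. The Cngb1 window (chr8:95306536-95306835, minus strand) carried TAATCC at -58 and again at -25, and the Gnb1 window (chr4:155491111-155491410, plus strand) had neither. Of the windows not printed, Cnga1 had TAATCC at -228 and Gngt1 had GGATTA at -44.

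The first comparison asked how far the cascade transcripts were reduced in NS-treated rd10 against WT at P28. All 9 genes fell. Their log2 fold changes, from edgeR's quasi-likelihood test on the counts, ran from -2.23 for Pde6b to -1.16 for Sag with a median of -1.71, where the median over the 14644 genes tested was 0.005. Each had a Benjamini-Hochberg adjusted p between 2.13e-08 and 6.5e-07 over all genes tested (edgeR), and each was called lower, that is, with an adjusted p under 0.05 and a log2 fold change of at least 1 in size. Across all genes tested, 3.57% were called lower. The 3 NS-treated libraries lay below the 3 WT libraries for all 9 genes, while 33.2% of all genes were separated in this direction. In whole retina, fewer rods and less RNA per rod cannot be told apart.

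Among the transducin subunits, Gnat1 stood at 6018, 5939 and 6446 FPKM in WT and at 1638, 1798 and 1326 in NS-treated rd10. The highest NS-treated library was far below the lowest WT library. On the counts Gnat1 was 4.37-fold lower (log2 fold change -2.13, SE 0.11). Gnb1, which is expressed in many cell types and serves as the beta subunit of rod transducin, read 2708, 2505 and 2561 FPKM in WT against 823, 929.55 and 685 in NS-treated rd10, a 3.46-fold lower level on the counts (log2 fold change -1.79, SE 0.098). Gngt1, the rod-specific gamma subunit, read 439, 478 and 463 FPKM against 169, 192 and 139, and was 3.12-fold lower (log2 fold change -1.64, SE 0.105). Of the 3 subunits of this G protein, Gnat1 had the largest estimate and Gngt1 the smallest.

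Pde6b, the gene that carries the rd10 mutation, had the largest fall of the 9. Its FPKM was 819.7, 804 and 856 in WT against 199, 230.4 and 169 in NS-treated rd10, and it was 4.69-fold lower on the counts (log2 fold change -2.23, SE 0.103). Because the mutation is a missense change, a transcript level does not check the genotype, and the bases of the reads were not analysed here. Pde6a, its catalytic partner, read 669, 601 and 629.8 FPKM in WT against 247, 242 and 187 in NS-treated rd10, and was 3.18-fold lower (log2 fold change -1.67, SE 0.108). Pde6g, the inhibitory subunit that transducin relieves, had an estimate near that of Pde6b, with 1950.2, 1928 and 2056 FPKM in WT, 542, 611 and 460.4 after NS, and a 4.16-fold lower level on the counts (log2 fold change -2.06, SE 0.096).

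Both subunits of the channel fell, with similar estimates. Cnga1, the pore-forming subunit gated by cyclic GMP, read 258, 251 and 250.03 FPKM in WT against 96.25, 108 and 79.6 in NS-treated rd10, and was 3.03-fold lower on the counts (log2 fold change -1.6, SE 0.098). Cngb1, the modulatory subunit, read 351, 342 and 361 against 124, 140.07 and 109 and was 3.26-fold lower (log2 fold change -1.71, SE 0.097). Sag had the smallest estimate. It read 2543, 2371 and 2732 FPKM in WT against 1314, 1423 and 1133 in NS-treated rd10, and was 2.24-fold lower on the counts (log2 fold change -1.16, SE 0.092). Its 95% interval, -1.36 to -0.959, did not overlap that of any other of the 9 genes, of which the nearest was Cnga1 with -1.82 to -1.38. Rod arrestin is also known in mouse cones. On FPKM, where the median of all genes tested was 0.137 on the log2(FPKM + 1) scale, the log2 fold change of Sag was -0.986 and missed the limit of 1, and the other 8 genes were still called lower.

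**Figure D2:**
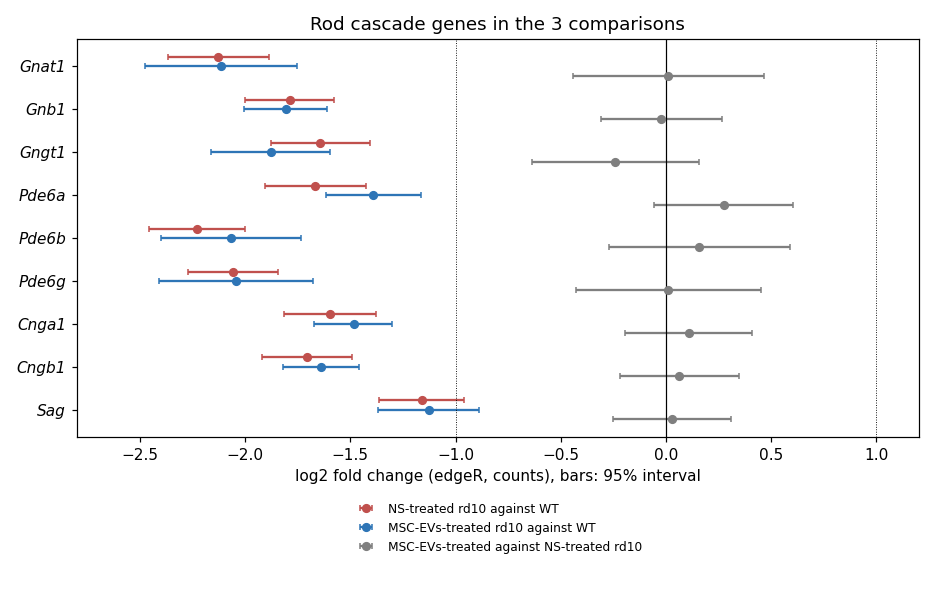
Log2 fold change of each gene (x axis, edgeR on counts) for each rd10 group against WT and for the rd10 groups against each other; points are estimates, bars 95% intervals, and dotted lines mark the limit of 1. Both comparisons with WT lie between -2.23 and -1.13, and the intervals between the rd10 groups all span 0.

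The same genes in MSC-EVs-treated rd10 were then set against WT. All 9 were lower and all 9 were called, with log2 fold changes between -2.12 for Gnat1 and -1.13 for Sag, a median of -1.81 and adjusted p-values between 4.85e-07 and 5.78e-05 (edgeR). Over all 14623 genes tested in this comparison, 3.2% were called lower, and 33.3% had MSC-EVs-treated libraries that all lay below the WT libraries, as all 9 members had. Pde6b was at -2.07 (SE 0.141), Pde6g at -2.04 (SE 0.153), Gngt1 at -1.88 (SE 0.121), Gnb1 at -1.81 (SE 0.089), Cngb1 at -1.64 (SE 0.081), Cnga1 at -1.49 (SE 0.083) and Pde6a at -1.39 (SE 0.1). This comparison shares its WT libraries with the first, and the values are given side by side only. With MSC-EVs replicate 3 alone, or with Y-linked expression as a covariate, 8 of the 9 were called, and Sag, at -0.967 and -0.975, was not. The fit on replicate 3 alone takes its spread from the WT libraries. Because the WT libraries also had low Y-linked counts (0.314 to 0.501 CPM), the covariate fit rests largely on replicate 3 as well.

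The comparison that addresses the treatment itself is MSC-EVs-treated against NS-treated rd10. None of the 9 cascade genes was called in it, and the libraries of the 2 groups overlapped for each of them. Log2 fold changes lay between -0.24 for Gngt1 and 0.274 for Pde6a, with a median of 0.03 beside -0.002 over the 14765 genes tested, 7 above 0 and 2 below. Adjusted p-values were between 0.328 and 0.984 (edgeR), and 0 of the 9 had an unadjusted p under 0.05, a level that 20.2% of all genes reached. Of all genes tested, 0.061% were called in either direction and 1.16% had an adjusted p under 0.05 at any fold, and 26.3% had groups that did not overlap. With the replicate numbers as a block, the number of genes called over the whole table rose from 9 to 21 and none of them was a cascade gene. By DESeq2's Wald test 33 genes were called and by edgeR's exact test 56, again with none of the 9.

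The intervals show what size of change remained possible with 3 libraries a group. With MSC-EVs, Gnat1 read 1244, 1558 and 1922 FPKM, from below the lowest to above the highest NS-treated value, and its 95% interval, -0.444 to 0.467 on the log2 scale, reached from 0.735-fold to 1.38-fold of the NS-treated level. Pde6a, the gene with the largest positive value, read 231, 271 and 304 FPKM, and its log2 fold change of 0.274 (95% interval -0.056 to 0.604, adjusted p 0.328 by edgeR) corresponded to 1.21-fold. Pde6b, at 175, 220.5 and 261 FPKM, had a log2 fold change of 0.158 with an interval of -0.271 to 0.588. For each of these genes, the lowest MSC-EVs-treated library lay below the highest NS-treated library.

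Gngt1 was the lowest, at 118, 133 and 165 FPKM, with a log2 fold change of -0.24 and an interval of -0.636 to 0.156. With MSC-EVs replicate 3 alone, the log2 fold change of Gngt1 was 0.022. In the main fit, the remaining members lay closer to 0 than Gngt1. Gnb1 read 716, 895 and 886 FPKM (log2 fold change -0.022, interval -0.31 to 0.266), and Pde6g read 421, 532 and 646 (0.011, interval -0.428 to 0.451). For the channel, Cnga1 read 87.2, 107.1 and 107.45 FPKM (0.109, interval -0.193 to 0.411) and Cngb1 read 106, 127 and 132 (0.064, interval -0.22 to 0.349). Sag, at 1102, 1346 and 1444 FPKM, had the narrowest interval, -0.25 to 0.309 around 0.03. Over the 9 genes the interval reaching furthest up was that of Pde6a, which ended at 1.52-fold, and the one reaching furthest down was that of Gngt1, at 0.643-fold.

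Differences among the 6 rd10 libraries ran across the groups. By CPM, MSC-EVs replicate 3 was the highest of the 6 for 7 genes and NS replicate 2 for the other 2, Gnb1 and Gngt1, whereas MSC-EVs replicate 1 was the lowest for 5 genes and NS replicate 3 for 4. The highest library exceeded the lowest by 1.32-fold for Sag to 1.66-fold for Pde6a. This order depended in part on the unit. By FPKM, NS replicate 2 was the highest for Cnga1 and Cngb1 as well. The lowest by FPKM was NS replicate 3 for Gnb1 and MSC-EVs replicate 1 for Cngb1. Summed over the 9 genes, the CPM values were 10510, 11430 and 8597 with NS against 8634, 10650 and 12090 with MSC-EVs, and each group held a library near 8600. Replicate 3 of the MSC-EVs group was also the deepest and had low Y-linked counts (0.358 CPM), and replicate 1 of that group had high ones. Without MSC-EVs replicate 1 the median log2 fold change of the 9 genes was 0.162, without replicate 3 it was -0.063, with replicate 3 alone it was 0.217, and with Y-linked expression as a covariate it was 0.211. None of the 9 was called in these fits. With replicate 3 alone the spread comes from the NS-treated libraries only and the single library is assumed to vary like them, so that fit is weak. The NS-treated libraries also had low Y-linked counts (0.237 to 0.49 CPM). The covariate fit therefore rests largely on replicate 3 against NS as well, and is not a separate check.

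Ratios between cascade genes within a library do not depend on its depth. An exact two-sided permutation test of 3 libraries against 3 cannot give a p below 0.1, and p-values were adjusted over 16 ratios in each comparison. Sag over Gnat1, on the FPKM scale, was 0.423, 0.399 and 0.424 in WT against 0.802, 0.791 and 0.855 in NS-treated rd10, a 1.96-fold higher ratio (exact p 0.1, adjusted 0.114). The catalytic subunits exchanged order, with Pde6a over Pde6b at 0.767 ± 0.0436 (SD, n = 3) in WT and 1.13 ± 0.0986 in NS-treated rd10 (exact p 0.1). Gnat1 over Gngt1 went from 13.4 ± 0.8 to 9.53 ± 0.145, and Gnat1 over Gnb1 from 2.37 ± 0.147 to 1.95 ± 0.0329. For the channel subunits, Cnga1 over Cngb1 was 0.721 ± 0.0247 in WT and 0.759 ± 0.0254 in NS-treated rd10 (exact p 0.3), with overlapping libraries. On the counts that ratio was 0.776, 0.773 and 0.731 in WT against 0.797, 0.841 and 0.82 after NS, which did not overlap (exact p 0.1), so the separation of this pair depends on the unit.

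Between the rd10 groups, 5 of the 8 ratios of a rod gene over a rod gene did not overlap. Of the 8 ratios of a rod gene over its cone counterpart, 1 did not. Each of these had an exact p of 0.1, the smallest possible, and an adjusted p of 0.267. Of all single genes tested there, 26.3% had groups that did not overlap. Several of these ratios share a gene, so they are not independent of each other. Tested instead as pairs of the same replicate number, by an exact sign-flip test chosen after seeing the data, no ratio can give a p below 0.25. Gnat1 over Gngt1 was 9.67, 9.38 and 9.53 in NS-treated and 10.5, 11.7 and 11.6 in MSC-EVs-treated rd10. Pde6g over Pde6b was 2.73, 2.65 and 2.72 in NS-treated and 2.4, 2.41 and 2.47 in MSC-EVs-treated rd10, where the WT libraries read 2.38, 2.4 and 2.4. Pde6g over Pde6a had means of 2.39 and 1.97 and Gngt1 over Gnb1 means of 0.205 and 0.167, and Cnga1 over Cngb1 had means of 0.759 and 0.827, a log2 difference of 0.123 that was 0.045 with counts in place of FPKM, where the groups overlapped (exact p 0.2). None of these passed the adjusted threshold, which this design cannot reach. Pde6a over Pde6b overlapped between the groups but was higher with MSC-EVs in all 3 pairs (sign-flip p 0.25, exact). Sag over Gnat1 did not separate the rd10 groups, at 0.816 ± 0.0339 and 0.834 ± 0.0724 (exact p 0.8).

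**Figure D3:**
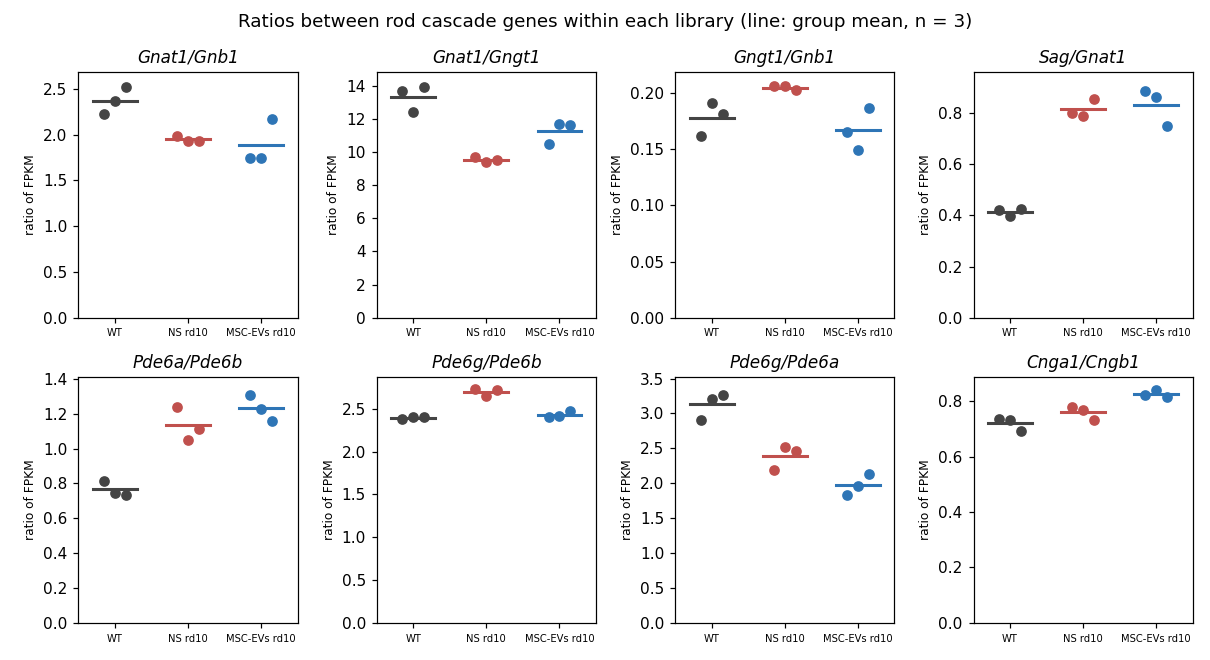
Ratio of the FPKM values of 2 cascade genes in the same library (y axis, from 0) for 8 pairs; each point is 1 library and each line the mean of 3. Sag over Gnat1 is near 0.4 in WT and near 0.8 in both rd10 groups, and Pde6a over Pde6b is below 1 in WT and above 1 in rd10.

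Cones use their own versions of most of these proteins. Of the 8 cone counterparts, none was called in NS-treated rd10 against WT, with a median log2 fold change of 0.146. Of all genes tested, 3.57% were called lower and 9.16% higher. At an adjusted p under 0.05 and any fold (edgeR), 3 were higher and 1 was lower, where 31.1% and 30.1% of all genes were higher and lower. Gnb3, the beta subunit of cone transducin, which ON bipolar cells also express, was 1.87-fold higher (log2 fold change 0.9, SE 0.108), Pde6c, the catalytic subunit of cone PDE6, was 1.32-fold higher, and Gnat2, the cone alpha subunit, was 1.29-fold lower. The ratio of the rod gene to its cone counterpart was tested for 8 pairs, and 0.1 is again the smallest exact p. Gnat1 over Gnat2 was 56.7 ± 2.76 in WT and 16.8 ± 2.62 in NS-treated rd10, and Pde6b over Pde6c was 21.9 ± 0.697 and 3.54 ± 0.414 (exact p 0.1 each).

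Sag over the cone arrestin Arr3 overlapped, at 35.8 ± 1.57 in WT and 26.5 ± 13 in NS-treated rd10 (exact p 0.4), and Arr3 ranged from 34.6 to 68.3 FPKM in the NS-treated libraries. In MSC-EVs-treated rd10, Arr3 was 2.52-fold lower than in WT (log2 fold change -1.33, SE 0.08, adjusted p 1.33e-06 by edgeR) and was the 1 cone counterpart called. Of all genes tested against WT there, 3.2% were called lower. At an adjusted p under 0.05 and any fold, 4 of the 8 were lower in that comparison, Gnat2 (-0.713), Gngt2 (-0.243), Pde6h (-0.33) and Arr3, and Gnb3 was higher (0.833), where 27.2% of all genes were lower and 28.3% higher. Between the rd10 groups all 8 cone counterparts had negative log2 fold changes, from -0.755 for Arr3 to -0.032 for Cnga3, 6 of the 8 with an unadjusted p under 0.05, which 20.2% of all genes had, and none with an adjusted p under it. The nearest were Pde6h, the inhibitory subunit of cone PDE6 (log2 fold change -0.343, adjusted p 0.0521 by edgeR), and Gngt2, the cone gamma subunit (-0.382, adjusted p 0.0596). On FPKM, Pde6g over Pde6h was 15.5 ± 2.2 in NS-treated and 25.3 ± 5.3 in MSC-EVs-treated libraries, without overlap (exact p 0.1, adjusted 0.267). On the counts it was 2.94, 3.44 and 2.61 with NS against 2.92, 4.14 and 4.44 with MSC-EVs, which overlapped (exact p 0.3), and the log2 difference was 0.342 in place of 0.69.

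**Figure D4:**
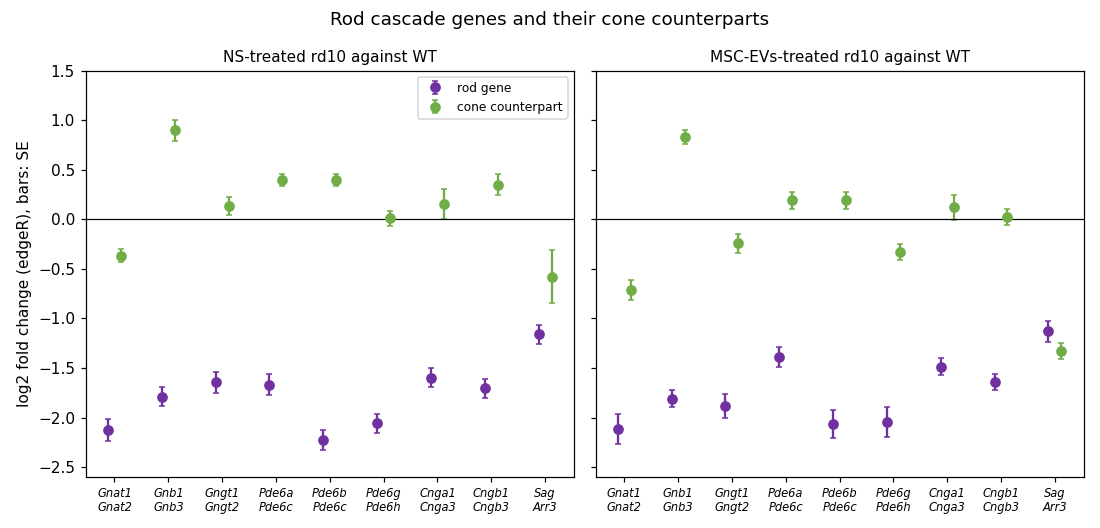
Log2 fold change (y axis, edgeR on counts; bars are standard errors) of each rod cascade gene and of its cone counterpart, named below it, against WT in NS-treated and MSC-EVs-treated rd10. The rod genes lie between -2.23 and -1.13; the cone genes lie between -0.578 and 0.9 in NS-treated rd10, and Arr3 reaches -1.33 in MSC-EVs-treated rd10. Pde6c is drawn for both Pde6a and Pde6b.

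The genes that shut the cascade off and reset calcium were lower as well. Of 11, 10 were called lower in NS-treated rd10 against WT and the eleventh, Gnb5, was lower at any fold, with a median log2 fold change of -1.82, where 3.57% of all genes were called lower and 30.1% were lower at any fold. Guca1b, a calcium sensor of guanylate cyclase, was 5.84-fold lower, Pdc, the transducin-binding protein phosducin, 4.27-fold, Rgs9bp, the membrane anchor of the complex that speeds GTP hydrolysis on Gnat1, 4.1-fold, and Grk1, the receptor kinase, 3.52-fold. Rgs9, the catalytic member of that complex, was 2.19-fold lower (log2 fold change -1.13, SE 0.202, adjusted p 0.00434 by edgeR). In MSC-EVs-treated rd10 against WT, 9 of the 11 were called lower, against 3.2% of all genes, and Rgs9, at -0.51 (SE 0.107), was not among them. Its difference between the rd10 groups, 0.621 (SE 0.169), had an adjusted p of 0.122 by edgeR. None of the 11 passed in that comparison, where 1.16% of all genes passed at any fold.

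Proteins that assemble PDE6 or carry cascade proteins to the outer segment gave a smaller median. In NS-treated rd10 against WT, 3 of 7 were called lower and 6 of 7 were lower at any fold (3.57% and 30.1% of all genes), with a median of -1. Tulp1, which is needed for transport of proteins to the outer segment, was 3.31-fold lower, and Unc119, which binds the lipid tail of transducin alpha, 3.17-fold. Aipl1, the chaperone of PDE6, was 2-fold lower, with a log2 fold change that rounded to -1 and did not reach the limit. Rp2, a GTPase-activating protein for Arl3, had a log2 fold change of 0.235 (adjusted p 0.0525 by edgeR). Structural genes of the outer segment gave 6 of 7 called lower with a median of -1.77, among them the rim proteins Prph2, 4.15-fold lower, and Rom1, 3.42-fold lower.

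Of the 5 transcription factors that maintain rod expression, 2 were called lower in NS-treated rd10 against WT and all 5 were lower at any fold, beside the same 3.57% and 30.1% of all genes. Nrl, which specifies rods, was 4.87-fold lower (log2 fold change -2.28, SE 0.106), and Crx, which acts in rods and cones, 2.26-fold. Nr2e3, which represses cone genes in rods, stood at -0.957, and Otx2 and Mef2d were at -0.261 and -0.306. None of the genes on these 4 lists was called between the rd10 groups, where only 0.061% of all genes were called. Their medians there were 0.172 for shut-off, -0.006 for assembly and transport, 0.154 for the outer segment and -0.069 for the transcription factors.

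**Figure D5:**
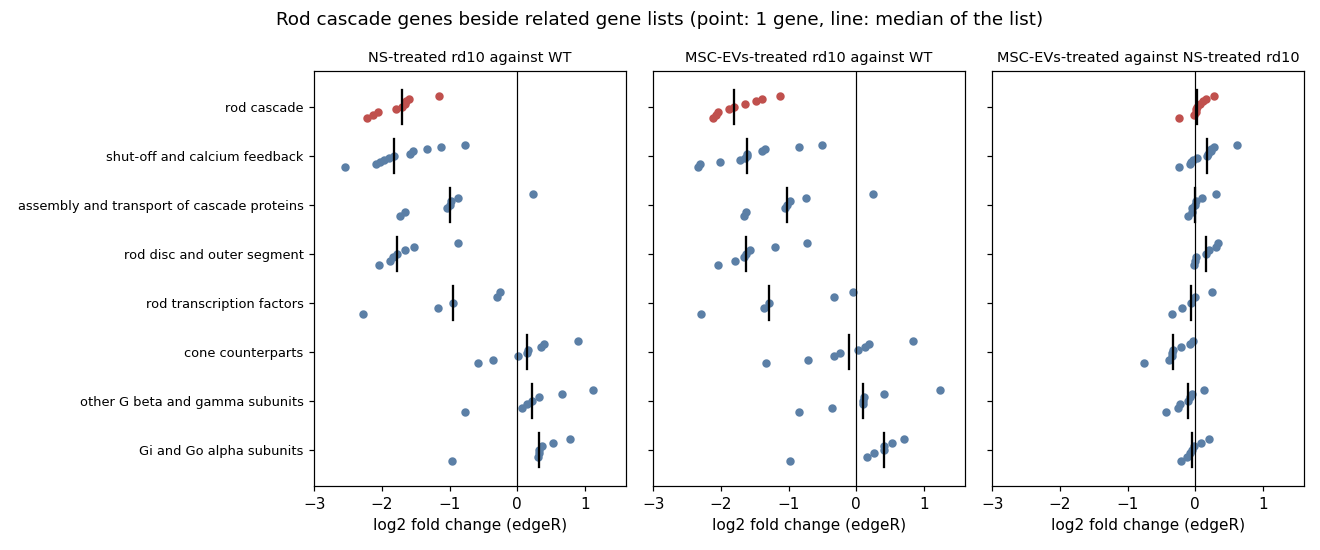
Log2 fold change (x axis, edgeR on counts) of the rod cascade genes and of 7 related gene lists in the 3 comparisons; each point is 1 gene and each black line the median of its list. The rod cascade, shut-off and outer segment lists have medians of -1.71, -1.82 and -1.77 in NS-treated rd10 against WT, and every rod cascade gene lies between -0.24 and 0.274 between the rd10 groups.

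Genes with the most similar profile over the 9 libraries were taken by the smallest root-mean-square difference in log2 CPM, each gene set to its own WT mean, among 13823 genes. Gnat1 was nearest to Pde6g (0.0612), then to Pde6b (0.0703) and Fscn2, an actin-bundling protein of photoreceptors (0.0902). Cngb1 was nearest to Tulp1 (0.0556), Cabp4 (0.0621) and Grk1 (0.0726), and Gnb1 to Rom1 (0.0521). Pde6a and Cnga1 shared Tdrd7 among their nearest genes, at 0.0619 and 0.0801, and Pde6a was the member nearest to Cnga1 (0.0934). Gngt1 lay closest to Prcd (0.0831), which encodes a small disc protein. Sag stood apart from the other 8: its nearest member was Cnga1, at 0.335, while its nearest gene was Elovl4, a fatty acid elongase of photoreceptors, at 0.0728. The size of a fall against WT enters this distance, so the distance of Sag repeats in part its smaller fall. These profiles share libraries and depth and are given as a description.

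Markers of other retinal cells moved beside the rod genes. In NS-treated rd10 against WT, all 8 gliosis genes and all 10 microglia and macrophage genes were called higher, as were 4 of 8 genes of the retinal pigment epithelium and 1 of 8 Muller glia genes, where 9.16% of all genes were called higher. None of the bipolar, amacrine and horizontal or ganglion cell genes was called, and their medians were 0.279, 0.272 and 0.347. At an adjusted p under 0.05 and any fold, however, 5, 8 and 5 genes of these lists of 8 were higher, against 31.1% of all genes, and 1 bipolar gene was lower. The summed CPM of the microglia list ran from 37.8 to 40.4 in WT, 260 to 331 in NS-treated and 227 to 413 in MSC-EVs-treated rd10, and those of the pigment epithelium list from 42.6 to 75.9, 71.1 to 276 and 76.1 to 200. All 8 gliosis and all 10 microglia genes were also called higher in MSC-EVs-treated rd10 against WT, where 9% of all genes were, and no gene of the lists was at 0 in a whole group. Lens and erythrocyte genes gave no calls. The part of these cell types in the fall of the rod genes was not tested.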

How the data were processed

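Poly(A) RNA of retinas, selected on oligo(dT) beads, was made into Illumina libraries, 3 from WT and 3 from each rd10 group. The authors deposited 1 table in which each gene has, for every library, an expected count (not scaled to depth) and an FPKM value. The submitters' processing notes name fastp, Bowtie2, HISAT2, StringTie 1.3.1 and RSEM, without roles. Strand use and the genome build are not given in the sources used here. Columns were matched to libraries by name, and 0 columns were left unmapped. Whole counts had been assumed; 9.16% to 11.7% of genes per library carried decimals, and expected counts were rounded.

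Tests used edgeR 4.0.16 under R 4.3.3, fitted to the 6 libraries of a comparison (filterByExpr, TMM factors, robust glmQLFit, glmQLFTest) with Benjamini-Hochberg adjustment over all genes tested; all 9 cascade genes passed the filter. A gene was called at an adjusted p under 0.05 and a log2 fold change of at least 1 in size. The standard error was the log2 fold change divided by the square root of F, and 95% intervals used the fit's degrees of freedom. Ratios of FPKM were compared by exact permutation. Alternatives used DESeq2 1.42.0 and limma 3.58.1 on log2(FPKM + 1) and log2(FPKM + 0.1). The scripts were tested on simulated data.

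Replicates of a group differed by more than sampling noise (chi-square per degree of freedom 4.1 to 31.31). Deviations of same-numbered libraries correlated at 0.103, 0.17 and 0.262 between the rd10 groups. These values are weak, and 0.103 is close to the 0.09 of replicate 1 between MSC-EVs-treated rd10 and WT. Between the rd10 groups, each MSC-EVs library correlated best with the NS library of its own number. Against WT, this did not hold for every number. The correlations were read only as possible pairing, since the labels do not state it. The main fits left it out, and it entered in the replicate block and the sign-flip test. The 9 genes, the lists and the tests were chosen with earlier results of these data known. Named were the 9 members, genes of the lists, and the 3 nearest profiles of each member. One gene is not reported here.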

Additional observations from a re-analysis of the deposited data

How the results depend on the processing

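In both comparisons with WT, all 9 cascade genes were called lower under every alternative, except that Sag fell short of the log2 limit of 1 in 3 FPKM fits of NS-treated against WT (-0.986) and, for MSC-EVs-treated against WT, in the same 3 fits (-0.981), with the Y-linked covariate and with replicate 3 alone. The replicate block changed no call of a cascade gene in any comparison; the block gave 1861 and 1790 genes called over all genes against WT, where the numbers did not pair the libraries (correlations -0.062 to 0.09). Between the rd10 groups no cascade gene was called under any of the 21 alternatives, and Pde6a and Pde6b kept their sign in all. The Pde6b estimate fell to 0.002 without 1 library, so its kept sign says little. Other estimates changed sign, those near 0 and also that of Gngt1, which was -0.24 in the main fit. With upper-quartile factors Gnat1 and Pde6g were at -0.024 and Sag at -0.006. With the replicate block Gnat1 was at -0.003 and Pde6g at -0.004. In limma on FPKM, Gnat1 was at -0.023, Pde6g at -0.024, Gnb1 at 0.038 and Cngb1 at -0.028, or -0.029 with a pseudocount of 0.1. With the Y-linked covariate Gnb1 was at 0.066 and Gngt1 at 0.012, with MSC-EVs replicate 3 alone at 0.075 and 0.022, and scaled on inner retinal neuron genes, chosen after seeing the data, Gnb1 was at 0.088; that scaling shifts all genes nearly alike, to all-gene medians of -0.281, 0.118 and -0.177 for NS-treated against WT, between the rd10 groups and for MSC-EVs-treated against WT, so the members' lower values under it are no test. Without each library in turn, the ranges were -0.167 to 0.162 for Gnat1, -0.121 to 0.089 for Gnb1, -0.161 to 0.162 for Pde6g, -0.004 to 0.212 for Cnga1, -0.049 to 0.159 for Cngb1 and -0.063 to 0.141 for Sag. They were 0.002 to 0.302 for Pde6b, 0.153 to 0.379 for Pde6a and -0.396 to -0.129 for Gngt1. Gnat1, Pde6g and Sag turned without NS replicate 3 or MSC-EVs replicate 3, Cnga1 and Cngb1 without NS replicate 3, and Gnb1 without NS replicate 2 or MSC-EVs replicate 1. Ratios of counts moved the log2 difference of Pde6g over Pde6h from -2.43 to -2.08 for NS-treated against WT and from 0.69 to 0.342 between the rd10 groups, and that of Cnga1 over Cngb1 between the rd10 groups to 0.045; the cause was not tested. Over all genes, limma on log2(FPKM + 1) called 988 genes in place of 1864 for NS-treated against WT and 1010 in place of 1784 for MSC-EVs-treated against WT (987 and 1008 with no filter). With no limit on the fold change, 8970, 8117 and, between the rd10 groups, 172 genes passed. Between the rd10 groups the 9 genes called became 0 to 82 without 1 library, 0 without NS replicate 3 or MSC-EVs replicate 1, 5 without NS replicate 2, 21 without NS replicate 1, 22 without MSC-EVs replicate 3 and 82 without MSC-EVs replicate 2. They became 33 by DESeq2, 56 by the exact test, 21 with the block, 38 with all 9 libraries in 1 fit, 30 with the Y-linked covariate, 85 with MSC-EVs replicate 3 alone, 31 with inner neuron scaling, and 6 by limma on FPKM or 0 with no filter. MSC-EVs effects inside the interval given for each gene remained compatible with these 3 libraries a group. The power to detect them was not computed, and a call also required a log2 fold change of at least 1 in size.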

Other observations

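Heterotrimeric G proteins other than rod transducin carry receptor signals in the rest of the retina. Of 7 alpha subunits other than the transducins, some of them widely expressed, none was called in NS-treated rd10 against WT, and by an adjusted p under 0.05 at any fold (edgeR) 6 were higher and 1 was lower. Over all genes tested in this comparison, 31.1% were higher and 30.1% lower at any fold, and 9.16% were called higher. Gnai2, an inhibitory alpha subunit common in immune cells, was 1.72-fold higher (log2 fold change 0.779, SE 0.052), Gnao1, the alpha subunit of ON bipolar signalling, was 1.24-fold higher, and Gnaz, at a log2 fold change of -0.96 (SE 0.061), was the 1 that fell. Among 7 other beta and gamma subunits, Gnb2 was called higher, at 2.16-fold (log2 fold change 1.11, SE 0.08), Gng2, Gng3 and Gng5 were higher at any fold, and Gnb5, the partner of Rgs9, was 1.71-fold lower. Gnb4 and Gng13 had log2 fold changes of 0.142 and 0.07 and did not pass. In MSC-EVs-treated rd10 against WT, Gnb2 was at 1.24 (SE 0.054) and Gnaz at -0.977 (SE 0.061). Between the rd10 groups none of these genes was called, and Gng13, the gamma subunit of ON bipolar cells, was at -0.429 (SE 0.085, adjusted p 0.0489 by edgeR). Of all genes tested there, 0.061% were called and 1.16% had an adjusted p under 0.05 at any fold.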
